A study of Mus musculus with 8 samples.

Results

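Transcript levels of 10 genes of secreted matricellular proteins were compared between stem cells of 3 mouse white fat depots. They were the thrombospondin genes Thbs1, Thbs2, Thbs3 and Thbs4, the CCN genes Cyr61 (Ccn1), Ctgf (Ccn2), Nov (Ccn3), Wisp1 (Ccn4) and Wisp2 (Ccn5), and the periostin gene Postn. The members were taken by symbol, and all 10 were found among the 17967 symbols of the count table. All 10 also passed the filter on low counts, as did 13694 genes in all.

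The study sorted adipose-derived stem cells, the fibroblast-like precursors of adipocytes, by flow cytometry after collagenase digestion of white fat, and sequenced their RNA in bulk. There were 2 libraries each of subcutaneous inguinal (SWAT), epididymal (EWAT) and perirenal (NWAT) cells. All groups shared the same background, male wild-type C57BL/6J mice fed chow, and the labels name no treatment or engineered allele. Mesenteric fat of the same series is not analysed here. The labels give no age and no gate markers, and nothing states that the replicates are different mice. A p-value here sets a depot difference against the spread between libraries of the same depot, which may be technical only. If it is, variation between mice is missing and the p-values are too small for a claim about depots. Libraries held 20026413 to 20638724 estimated read counts, and the progenitor markers Pdgfra (936 to 1443 CPM) and Cd34 (1227 to 1672 CPM) were high in all 6. Both were called lower in EWAT than in NWAT (log2 -0.45 and -0.38). Of 7 listed progenitor markers, 2 were called higher and 2 lower in SWAT than in EWAT (36.7% of all genes were called). In SWAT over NWAT 2 were higher and 0 lower (18.9% of all genes), and in EWAT over NWAT 2 higher and 2 lower (27.3%). In bulk RNA, fewer cells of a type and less RNA per cell cannot be told apart.

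Matricellular proteins are secreted into the extracellular matrix but act there mainly as signals, by binding integrins, syndecans, CD47, CD36 and LRP receptors and by holding or releasing growth factors such as TGF-beta. Thrombospondins 1 and 2 are trimers that restrain blood vessel growth, and thrombospondin 1 can also activate latent TGF-beta, whereas thrombospondins 3 and 4 belong to a pentameric subgroup. CCN proteins share a modular plan of domains that bind growth factors and matrix, and several of their genes respond to YAP/TAZ, TGF-beta or Wnt signals. Periostin is a fasciclin-domain protein that binds integrins and aids collagen cross-linking.

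Promoter sequences are shown for 3 members that differed between depots, as the stretch of 250 bases upstream of the annotated start, 5′ to 3′ on the gene's strand. They come from RefSeq on build GRCm38.p6, in whose promoter set 5 of the 10 members were found. Capitals mark matches, on either strand, to the letters GGAATG of the TEAD element, TGACG of the CRE half-site or TATAAA of the TATA box. The AP-1 letters TGANTCA and the CArG box were also searched.
Thbs2, chr17:14694263-14694512, minus strand: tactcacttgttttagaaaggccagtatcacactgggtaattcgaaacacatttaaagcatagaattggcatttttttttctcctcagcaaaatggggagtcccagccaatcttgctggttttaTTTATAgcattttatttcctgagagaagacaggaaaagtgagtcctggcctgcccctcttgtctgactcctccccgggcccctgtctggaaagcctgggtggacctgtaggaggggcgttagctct
Cyr61, chr3:145649986-145650235, minus strand: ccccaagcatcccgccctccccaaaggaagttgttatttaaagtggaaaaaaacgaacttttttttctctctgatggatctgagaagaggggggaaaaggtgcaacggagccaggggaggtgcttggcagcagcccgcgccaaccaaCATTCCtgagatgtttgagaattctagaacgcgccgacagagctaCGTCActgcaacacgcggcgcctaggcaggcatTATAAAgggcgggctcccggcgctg
Postn, nearer of 2 listed starts, chr3:54360857-54361106, plus strand: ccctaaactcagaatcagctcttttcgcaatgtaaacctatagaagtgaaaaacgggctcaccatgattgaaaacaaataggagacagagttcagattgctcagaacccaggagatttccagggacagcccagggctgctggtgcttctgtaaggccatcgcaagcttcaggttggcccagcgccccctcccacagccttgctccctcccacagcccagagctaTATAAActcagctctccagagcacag

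In the Cyr61 promoter, a TEAD match lay at -103 to -98 from the start, a CRE half-site at -58 to -54 and a TATA box at -25 to -20. The Postn promoter held a TATA box at -26 to -21, and the Thbs2 promoter held one on the reverse strand at -126 to -121. Neither AP-1 nor the CArG box matched in these 3 stretches. Over 32851 mouse promoters of the same length, 12.6% held the TEAD letters, 17.8% the CRE half-site, 12.4% the TATA box, 6.75% the AP-1 letters and 1.47% the CArG box. The Thbs3 and Thbs4 promoters were also searched, and Thbs4 held a pair of overlapping TEAD matches. A match describes the letters alone.

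Each depot carried its own mixture of these transcripts. SWAT cells were rich in Wisp2 and Thbs2 and poor in Thbs1 and Nov, EWAT cells were rich in Thbs1, Ctgf and Wisp1 and poor in Thbs2, and NWAT cells paired high Thbs1 and Nov with intermediate Thbs2 and very little Wisp2. In edgeR's quasi-likelihood model, with Benjamini-Hochberg adjustment over all tested genes at 0.05, 8 of the 10 members differed among depots, against 41.7% of all genes. In SWAT over EWAT 8 members passed (36.7% of all genes), of which Thbs2, Cyr61, Wisp2 and Postn were higher (18% of all genes were) and Thbs1, Ctgf, Nov and Wisp1 lower (18.7%). In SWAT over NWAT 5 passed (18.9% of all genes), Thbs2 and Wisp2 higher (9.07%) and Thbs1, Ctgf and Nov lower (9.83%). In EWAT over NWAT 5 passed (27.3% of all genes), Ctgf, Wisp1 and Wisp2 higher (13.3%) and Thbs2 and Postn lower (14%). The members were chosen with earlier results of these data known, so their counts carry no test against these shares.

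The members did not shift one way as a group. Their median log2 fold change was 0.14 in SWAT over EWAT, beside -0.0090 over all genes. It was 0.20 in SWAT over NWAT, beside -0.015, and -0.010 in EWAT over NWAT, beside 0.011. Thbs2, Ctgf and Wisp2 passed in all 3 pairs, as did 5.41% of all genes, and each ordered the depots differently. The libraries of a pair did not overlap for 8 of the 10 members in SWAT over EWAT (70% of all genes), 8 in SWAT over NWAT (63.1%) and 8 in EWAT over NWAT (65.5%). The comparisons share libraries with each other, so their counts are not independent. Of the 18 calls in single pairs, 13 were also made under every alternative setting tried, and the other 5 are named beside their genes.

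**Figure D1:**
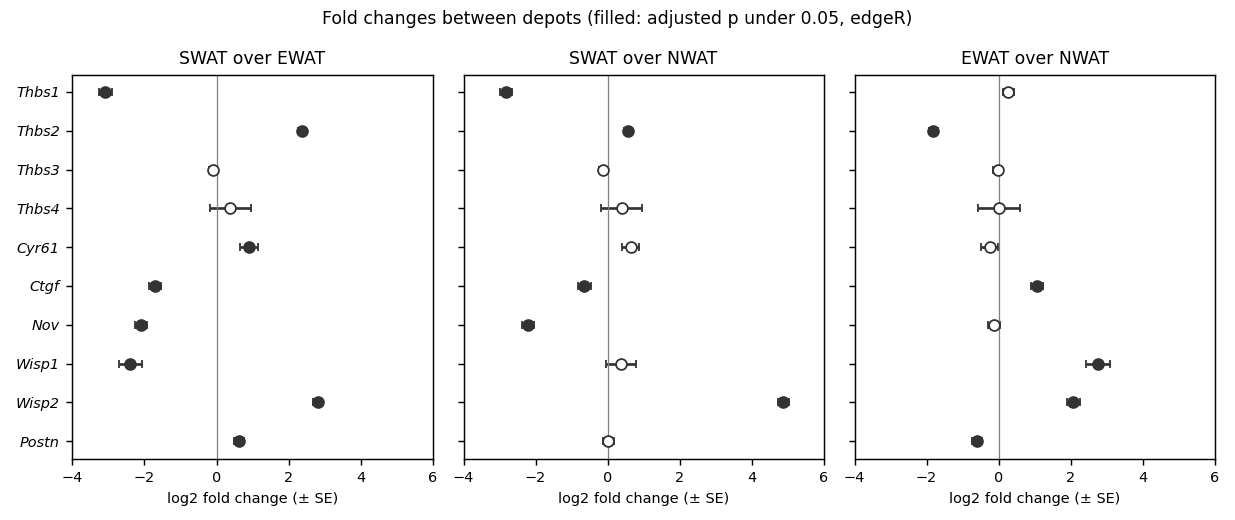
Log2 fold changes (x axis, with SE bars) of the 10 genes in SWAT over EWAT, SWAT over NWAT and EWAT over NWAT, filled where the adjusted p was under 0.05. Wisp2 lies far to the right in both SWAT panels (2.80 and 4.88) and Thbs1 far to the left (-3.08 and -2.81), while Thbs3 and Thbs4 are unfilled in all panels.

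Thbs1 (chromosome 2, 118111876 to 118127133, plus strand, GENCODE M21 on GRCm38), the TGF-beta-activating thrombospondin, was abundant in both visceral depots and low in inguinal cells. It had 172 and 204 CPM (the count scaled to library size with TMM factors) in SWAT libraries, 1853 and 1337 CPM in EWAT libraries and 1323 and 1319 CPM in NWAT libraries. Every SWAT library lay far below every other library, while the lower EWAT library was close to the NWAT pair. Thbs1 was 8.49-fold lower in SWAT than in EWAT (log2 -3.08 ± 0.17, SE, adjusted p = 1.05e-07) and 7.03-fold lower than in NWAT (-2.81 ± 0.17, adjusted p = 7.57e-07). EWAT and NWAT differed by 0.27 ± 0.16 (adjusted p = 0.220), which of all alternatives passed only without EWAT replicate 2 (0.48, adjusted p = 0.0241). Exons of Gm29233 on the other strand overlap 3.42% of the exon bases of Thbs1.

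Thbs2 (chromosome 17, 14665500 to 14694235, minus strand), the vessel-restraining relative of Thbs1, ran in another order. Its levels were 492 and 562 CPM in SWAT, 108 and 95.8 CPM in EWAT and 360 and 354 CPM in NWAT. The 3 depots did not overlap, with inguinal cells highest and epididymal cells lowest. Thbs2 was 5.18-fold higher in SWAT than in EWAT (log2 2.37 ± 0.12, adjusted p = 5.77e-08) and 3.51-fold lower in EWAT than in NWAT (log2 -1.81 ± 0.12, adjusted p = 9.74e-07). The smaller gap between SWAT and NWAT (0.56 ± 0.12, adjusted p = 0.00532) missed the threshold without SWAT replicate 2 (0.47, adjusted p = 0.0671) or without NWAT replicate 2 (0.55, adjusted p = 0.0541).

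Set against each other within a library, the trimeric pair changed places. Per length (FPKM, fragments per kilobase of gene and library size), the ratio of Thbs1 to Thbs2 was 0.355 and 0.367 in SWAT libraries, 17.4 and 14.1 in EWAT libraries and 3.73 and 3.77 in NWAT libraries. Thbs2 was therefore the more abundant of the pair in inguinal cells, and Thbs1 in both visceral depots. A ratio taken within a library does not depend on how libraries are scaled to each other.

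Thbs3 (chromosome 3, 89215180 to 89226837, plus strand), of the pentameric subgroup, was nearly level. It had 313 and 266 CPM in SWAT, 308 and 312 CPM in EWAT and 315 and 318 CPM in NWAT. The SWAT pair spanned more than the other 4 libraries, with its upper library just above both EWAT ones and below both NWAT ones. The log2 differences were -0.10 ± 0.11 in SWAT over EWAT, -0.13 ± 0.11 in SWAT over NWAT and -0.03 ± 0.11 in EWAT over NWAT (adjusted p = 0.543, 0.5001 and 0.866). Opposite-strand exons of Mtx1 (16.0 to 21.6 CPM) overlap 6.59% of the exon bases of Thbs3.

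The calls for Thbs3 depended on the scaling. SWAT libraries had TMM factors of 0.893 and 0.919, against 1.05 and 1.08 in EWAT and 1.04 and 1.03 in NWAT, and leaving these factors out moved the median of all genes by -0.236 in SWAT over EWAT, -0.191 in SWAT over NWAT and 0.0452 in EWAT over NWAT. With library totals only, Thbs3 was lower in SWAT than in EWAT (-0.33, adjusted p = 0.0257) and than in NWAT (-0.32, adjusted p = 0.0461), having moved by about as much as the median gene did. On FPKM, which is also scaled to library size alone, limma called Thbs3 lower in SWAT than in EWAT with either pseudocount (-0.33, adjusted p = 0.0311 on log2(FPKM + 1), and -0.34, adjusted p = 0.0307 on log2(FPKM + 0.1)), and did not call it in SWAT over NWAT (-0.31, adjusted p = 0.0586, and -0.32, adjusted p = 0.0576). The share of all calls that were higher was 49.1% in SWAT over EWAT, 48.0% in SWAT over NWAT and 48.8% in EWAT over NWAT with TMM, and 20.9%, 18.9% and 55.1% with library totals only.

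Thbs4 (chromosome 13, 92751590 to 92794818, minus strand), better known from tendon, muscle and heart, was near the limit of detection. SWAT libraries held 8 and 12 counts, EWAT libraries 10 and 8, and NWAT libraries 5 and 12. The libraries of all depots overlapped, and at this depth no difference was detectable (log2 0.38 ± 0.57, 0.39 ± 0.58 and 0.01 ± 0.59, adjusted p = 0.636, 0.704 and 0.992 in SWAT over EWAT, SWAT over NWAT and EWAT over NWAT).

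**Figure D2:**
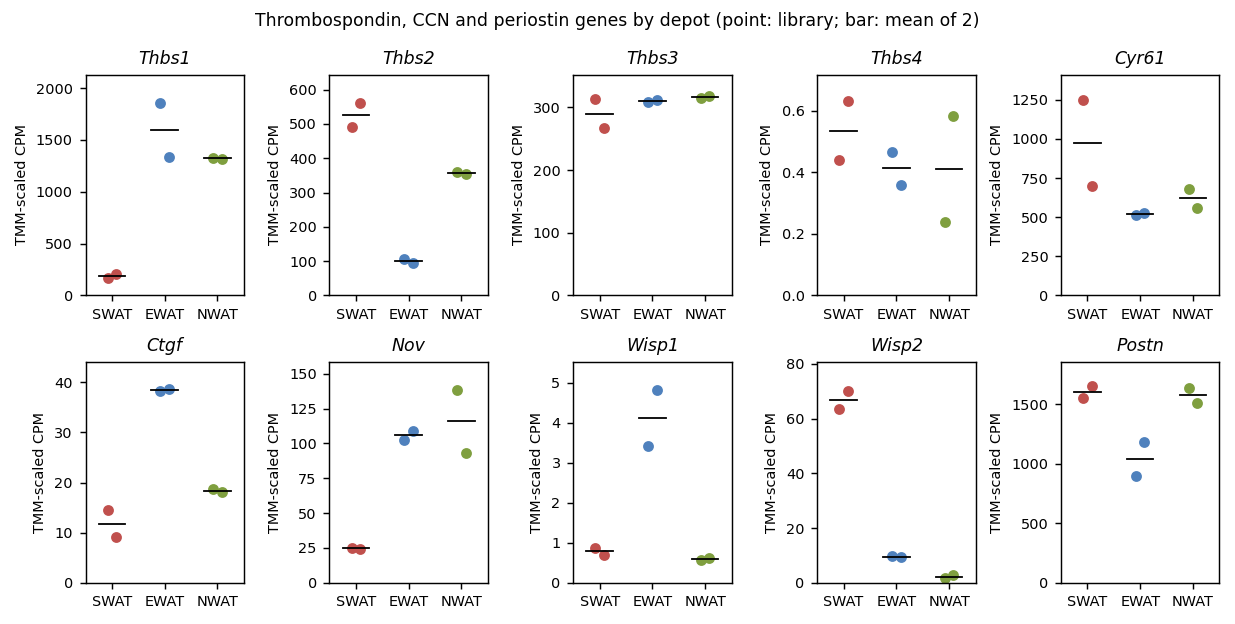
TMM-scaled CPM (y axis, from 0) of each gene in SWAT, EWAT and NWAT, where a point is a library and a bar the mean of 2. Wisp2 forms 3 steps, Thbs1 is low in SWAT only, Wisp1 is high in EWAT only, and the SWAT points of Cyr61 lie far apart (1246 and 697).

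Among the CCN genes Wisp2 (chromosome 2, 163820861 to 163833146, plus strand), a Wnt-responsive gene of preadipocytes whose protein lacks the carboxy-terminal cystine knot of its relatives, separated the depots most widely. It had 63.6 and 70.0 CPM in SWAT, 9.67 and 9.44 CPM in EWAT and 1.86 and 2.67 CPM in NWAT. The depots formed 3 separate steps, and the NWAT libraries held 39 and 55 counts. Wisp2 was 6.99-fold higher in SWAT than in EWAT (log2 2.80 ± 0.13, adjusted p = 2.64e-08) and 29.4-fold higher in SWAT than in NWAT (4.88 ± 0.16, adjusted p = 4.70e-09). It was also 4.21-fold higher in EWAT than in NWAT (2.07 ± 0.17, adjusted p = 4.86e-06).

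Wisp1 (chromosome 15, 66891320 to 66923201, plus strand), also Wnt-inducible and known as an adipokine, was scarce and highest in epididymal cells. SWAT libraries held 16 and 13 counts, EWAT libraries 73 and 107, and NWAT libraries 12 and 13. That was 0.877 and 0.686 CPM in SWAT, 3.41 and 4.81 CPM in EWAT and 0.573 and 0.631 CPM in NWAT. The EWAT pair stood well above the other 4 libraries, which lay close together. Wisp1 was 5.24-fold lower in SWAT than in EWAT (log2 -2.39 ± 0.32, adjusted p = 0.000150) and 6.78-fold higher in EWAT than in NWAT (2.76 ± 0.33, adjusted p = 8.30e-05). SWAT and NWAT differed by 0.37 ± 0.41 (adjusted p = 0.588). On the log2(FPKM + 1) scale, which understates changes of low genes, the called differences were -0.71 and 0.73.

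Ctgf (chromosome 10, 24595442 to 24598683, plus strand), a profibrotic target of YAP/TAZ and TGF-beta, was also highest in epididymal cells. Its levels were 14.5 and 9.07 CPM in SWAT, 38.2 and 38.6 CPM in EWAT and 18.6 and 18.1 CPM in NWAT. The EWAT libraries agreed closely and lay well above the others, whereas the SWAT libraries lay below those of NWAT but apart from each other. Ctgf was 3.27-fold lower in SWAT than in EWAT (log2 -1.71 ± 0.17, adjusted p = 2.67e-05) and 2.09-fold higher in EWAT than in NWAT (1.06 ± 0.17, adjusted p = 0.000835).

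Between SWAT and NWAT the difference of Ctgf was smaller, at -0.64 ± 0.18 (adjusted p = 0.0281), and its size turned on the SWAT libraries. It was -1.02 (adjusted p = 0.00158) without SWAT replicate 1 and -0.34 (adjusted p = 0.203) without SWAT replicate 2. Leaving out EWAT replicate 1, EWAT replicate 2, NWAT replicate 1 or NWAT replicate 2 kept its size (-0.64, -0.64, -0.62 and -0.66) but not the call (adjusted p = 0.0591, 0.0607, 0.125 and 0.109). The same held for a fit of these 2 depots alone (-0.64, adjusted p = 0.0514). An antisense gene, Gm15270, overlaps 23.2% of the exon bases of Ctgf and had 0.897 to 1.31 CPM. The strand setting of the counting is not given in the sources used here.

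Cyr61 (chromosome 3, 145646976 to 145649981, minus strand), an immediate-early gene and YAP/TAZ target that promotes adhesion and vessel growth, was the most abundant CCN transcript in every library. It had 1246 and 697 CPM in SWAT, 516 and 528 CPM in EWAT and 683 and 560 CPM in NWAT. Both SWAT libraries lay above the rest, but the second was within reach of NWAT and the first stood far above. Cyr61 was 1.86-fold higher in SWAT than in EWAT (log2 0.90 ± 0.24, adjusted p = 0.0203). The differences of SWAT over NWAT (0.65 ± 0.24, adjusted p = 0.105) and EWAT over NWAT (-0.25 ± 0.24, adjusted p = 0.478) did not pass.

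The size of the SWAT over EWAT difference of Cyr61 turned on the SWAT libraries, at 0.42 (adjusted p = 0.0831) without SWAT replicate 1 and 1.26 (adjusted p = 0.000170) without SWAT replicate 2. Without EWAT replicate 1 or EWAT replicate 2 it kept its size (0.88 and 0.93) but not the call (adjusted p = 0.224 and 0.265), as with no count filter (0.90, adjusted p = 0.0552). It was smaller and missed the threshold on log2(FPKM + 1) in limma (0.60, adjusted p = 0.0689). Without SWAT replicate 2 the SWAT over NWAT difference of Cyr61 passed (1.01, adjusted p = 0.00168).

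Immediate-early and dissociation genes, which tissue digestion can induce, were read beside Cyr61. Their median log2 fold change was 0.098 in SWAT over EWAT and 0.14 in SWAT over NWAT, beside -0.0090 and -0.015 over all genes. Of 22 such genes, 9 were higher and 5 lower in SWAT than in EWAT, 8 higher and 3 lower in SWAT than in NWAT, and 3 higher and 0 lower in EWAT than in NWAT. Over all genes, 36.7%, 18.9% and 27.3% passed in these pairs, in either direction. Their summed level was 55490 and 47505 CPM in SWAT, 41453 and 37912 CPM in EWAT and 43427 and 40640 CPM in NWAT, highest in the library with the most Cyr61. Abundant genes weigh most in this sum, among them Egr1 (10195 and 9105 CPM in SWAT). Fosb, an AP-1 subunit, had 9947 and 8246 CPM in SWAT, 4513 and 3611 CPM in EWAT and 4819 and 4526 CPM in NWAT (log2 1.16 ± 0.15 in SWAT over EWAT, adjusted p = 1.00e-04). The nuclear receptor gene Nr4a1 ran the other way, lower in SWAT than in EWAT (-1.53 ± 0.13, adjusted p = 2.50e-06). In EWAT over NWAT the heat shock gene Hspa1b, which may share reads with its near copy Hspa1a, had the widest change that passed (1.09 ± 0.21, adjusted p = 0.00650). With library totals only, the split was 6 higher and 8 lower in SWAT over EWAT and 6 higher and 4 lower in SWAT over NWAT. The part of this response in the Cyr61 result was not tested.

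Nov (chromosome 15, 54745702 to 54754039, plus strand), a CCN protein that binds Notch1 and integrins, followed Thbs1 in being low in inguinal cells. Its levels were 25.2 and 24.5 CPM in SWAT, 103 and 109 CPM in EWAT and 138 and 93.1 CPM in NWAT. The SWAT libraries were close to each other and far below the rest, and the NWAT pair straddled the EWAT pair. Nov was 4.26-fold lower in SWAT than in EWAT (log2 -2.09 ± 0.17, adjusted p = 5.51e-06) and 4.66-fold lower than in NWAT (-2.22 ± 0.17, adjusted p = 8.79e-06). EWAT and NWAT differed by -0.13 ± 0.16 (adjusted p = 0.580). Nov was the member whose estimated counts were not whole numbers, so its values are uncertain where reads were split between features, and how that was done is not given in the sources used here.

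**Figure D3:**
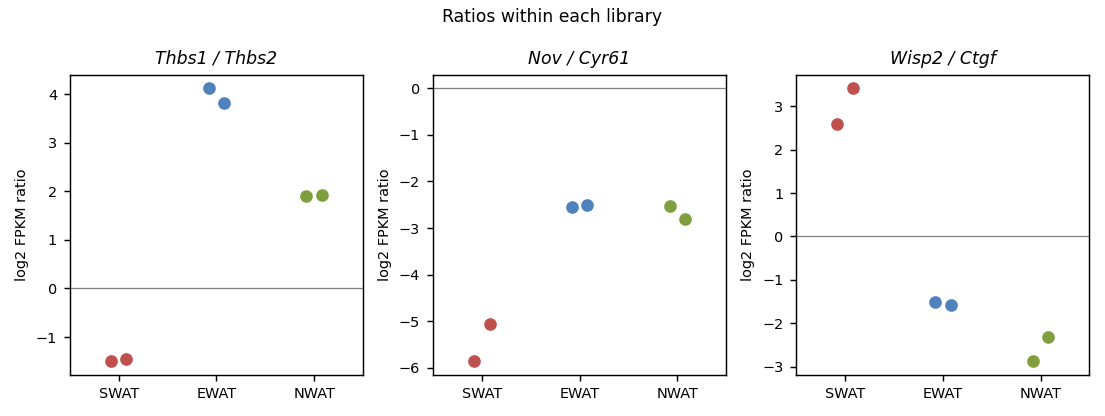
Log2 of the FPKM ratio within each library (y axis; points are libraries) for Thbs1 to Thbs2, Nov to Cyr61 and Wisp2 to Ctgf in SWAT, EWAT and NWAT. SWAT libraries stand apart in all panels: Thbs1 to Thbs2 is -1.50 and -1.45 in SWAT against 1.90 to 4.12 elsewhere, and Wisp2 to Ctgf is 2.60 and 3.42 in SWAT against -2.87 to -1.52 elsewhere. Each panel pairs genes already called in opposite directions in SWAT over EWAT.

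Ratios between CCN genes within a library restate these differences free of scaling between libraries. Per length, Wisp2 exceeded Ctgf 6.06 and 10.7 times in SWAT libraries, while the ratio of Wisp2 to Ctgf was 0.349 and 0.333 in EWAT and 0.136 and 0.201 in NWAT. The ratio of Nov to Cyr61 was 0.0173 and 0.0301 in SWAT, 0.170 and 0.177 in EWAT and 0.173 and 0.142 in NWAT. No SWAT library overlapped a library of another depot in either ratio. Both ratios set a gene called higher in SWAT than in EWAT against a gene called lower there. That SWAT stood apart from EWAT therefore adds no support to those calls. The ratio of Ctgf to Cyr61 was highest in EWAT, at 0.0623 and 0.0615, against 0.0229 and 0.0273 in NWAT and 0.00978 and 0.0110 in SWAT.

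Postn (chromosome 3, 54361109 to 54391037, plus strand), the periostin gene, was among the most abundant members everywhere and lowest in epididymal cells. It had 1547 and 1648 CPM in SWAT, 894 and 1184 CPM in EWAT and 1634 and 1512 CPM in NWAT. The EWAT libraries lay below all others, and the SWAT and NWAT libraries overlapped. Postn was 1.54-fold higher in SWAT than in EWAT (log2 0.62 ± 0.14, adjusted p = 0.00581) and 1.51-fold lower in EWAT than in NWAT (-0.60 ± 0.14, adjusted p = 0.00959), and SWAT and NWAT differed by 0.02 ± 0.14 (adjusted p = 0.937). The SWAT over EWAT call was lost with library totals only (0.38, adjusted p = 0.0557) and on log2(FPKM + 1) (0.40, adjusted p = 0.0765), and the EWAT over NWAT call without NWAT replicate 1 (-0.54, adjusted p = 0.0738).

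Levels were then compared between genes per length, by mean FPKM (± SD, n = 2). In SWAT cells Postn (459 ± 30.0) and Cyr61 (434 ± 165) came first and did not differ beyond their spread, as did Thbs3 (82.0 ± 8.04) and Thbs2 (80.2 ± 9.20) after them. Wisp2 (34.9 ± 3.16) and Thbs1 (29.0 ± 4.02) followed, then Nov (9.54 ± 0.0141) and Ctgf (4.43 ± 1.35). In EWAT cells Postn (351 ± 75.6), Thbs1 (288 ± 60.7) and Cyr61 (275 ± 9.55) led and lay within their spread of each other, ahead of Thbs3 (103 ± 2.97) and Nov (47.8 ± 2.98). Thbs2 (18.2 ± 1.15) and Ctgf (17.1 ± 0.431) lay within their spread of each other, and Wisp2 had 5.81 ± 0.0424.

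In NWAT cells the order by FPKM was Postn (513 ± 31.9), Cyr61 (318 ± 46.7), Thbs1 (232 ± 2.07) and Thbs3 (102 ± 0.622). Thbs2 (61.9 ± 1.08) and Nov (50.7 ± 14.4) overlapped in spread, and Ctgf (7.92 ± 0.198) and Wisp2 (1.33 ± 0.325) came after. Wisp1 and Thbs4 were last in every depot, with at most 1.03 FPKM in any library. Among all genes listed above 0 in a library, Thbs1 ranked 1927 and 1557 from the top in SWAT, 180 and 284 in EWAT and 253 and 263 in NWAT. Wisp2 ranked 1527 and 1338 in SWAT, 7462 and 7520 in EWAT and 11072 and 10507 in NWAT.

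**Figure D4:**
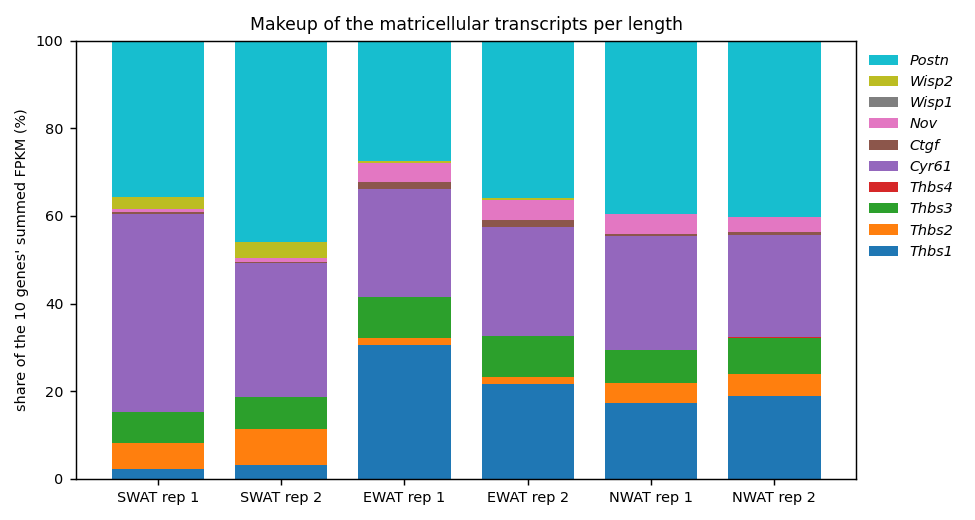
Share of the 10 genes' summed FPKM (y axis, %) taken by each gene in each SWAT, EWAT and NWAT library. Postn and Cyr61 fill most of every bar, and Thbs1 takes 2.13% and 3.05% in SWAT, 30.4% and 21.7% in EWAT and 17.2% and 18.9% in NWAT.

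The makeup of the summed FPKM of the 10 genes also differed between depots. Shares of a sum offset each other, so they do not show that any gene replaced another. Thbs1 made up 2.59% ± 0.648 of it in SWAT cells, 26.1% ± 6.19 in EWAT cells and 18.1% ± 1.19 in NWAT cells (SD, n = 2). Thbs2 and Wisp2 took their greatest shares in SWAT, with 6.02% and 8.31% for Thbs2 and 2.67% and 3.56% for Wisp2. Together the 10 genes held 0.346% and 0.320% of library counts in SWAT, 0.403% and 0.391% in EWAT and 0.465% and 0.430% in NWAT. The summed FPKM was 1224 and 1043 in SWAT, 1087 and 1129 in EWAT and 1355 and 1219 in NWAT, so the sums of SWAT and EWAT overlapped.

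Receptors were read from a list of 24 genes, all tested. In SWAT over EWAT 7 rose and 7 fell, in SWAT over NWAT 5 rose and 3 fell, and in EWAT over NWAT 4 rose and 8 fell. The shares of all genes that passed were 36.7%, 18.9% and 27.3%. Lrp5, a Wnt co-receptor, had 146 and 157 CPM in SWAT, 44.0 and 41.4 CPM in EWAT and 66.0 and 59.7 CPM in NWAT, and was higher in SWAT than in EWAT (log2 1.83 ± 0.11, adjusted p = 1.34e-07) and in NWAT (1.27 ± 0.10, adjusted p = 6.52e-06). Itga3, an integrin alpha subunit gene of few counts (0.165 and 0.211 CPM in SWAT, 1.17 and 1.44 CPM in EWAT, 0.668 and 1.07 CPM in NWAT), was lower in SWAT than in EWAT (-2.75 ± 0.52, adjusted p = 0.00166) and than in NWAT (-2.17 ± 0.55, adjusted p = 0.0172), the second call kept under 9 of 13 alternatives. Among receptor genes that passed in EWAT over NWAT, the widest changes were those of Itgb2, a leukocyte integrin gene at no more than 1.31 CPM (1.63 ± 0.46, adjusted p = 0.0218), and of the collagen receptor gene Itga2 (-1.20 ± 0.26, adjusted p = 0.00653). Itgb2 passed the filter on low counts through its EWAT libraries, with 28 counts in each and at most 10 elsewhere. Itgb3, whose product pairs with the alpha-v subunit to bind thrombospondins, CCN proteins and periostin, was higher in SWAT than in EWAT (0.75 ± 0.10, adjusted p = 0.000122) and lower in EWAT than in NWAT (-0.95 ± 0.10, adjusted p = 2.76e-05). Its partner Itgav was lower in EWAT than in NWAT (-0.33 ± 0.11, adjusted p = 0.0442), a call kept under 7 of 16 alternatives.

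Cd47, which codes for a thrombospondin 1 receptor, had 161 and 141 CPM in SWAT, 148 and 125 CPM in EWAT and 194 and 189 CPM in NWAT. It was lower in EWAT than in NWAT (-0.49 ± 0.12, adjusted p = 0.00973), and did not pass in SWAT over EWAT (0.15 ± 0.12, adjusted p = 0.354) or SWAT over NWAT (-0.34 ± 0.12, adjusted p = 0.0648). Cd36 had 70.6 and 131 CPM in SWAT, 49.5 and 58.6 CPM in EWAT and 45.9 and 42.9 CPM in NWAT. Its SWAT libraries lay far apart, the lower one not far above EWAT. Cd36 was higher in SWAT than in EWAT (0.90 ± 0.27, adjusted p = 0.0416) and NWAT (1.18 ± 0.28, adjusted p = 0.0281). Lrp1, with 5534 and 5611 CPM in SWAT, was also higher there than in EWAT (1.00 ± 0.14, adjusted p = 0.000159) and NWAT (0.52 ± 0.14, adjusted p = 0.0183). Notch1, which Nov binds, was higher in SWAT (0.83 ± 0.22, adjusted p = 0.0301) and in EWAT (0.79 ± 0.22, adjusted p = 0.0275) than in NWAT, calls kept under 6 and 11 of 16 alternatives. Scaled by library totals alone, the receptor counts were 6 higher and 8 lower in SWAT over EWAT and 3 higher and 9 lower in SWAT over NWAT.

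In the list of 16 TGF-beta ligands, latency genes and receptors, the widest changes that passed were those of latency genes in SWAT over EWAT and EWAT over NWAT, and of Ltbp4 in SWAT over NWAT. In SWAT over EWAT 1 rose and 4 fell, in SWAT over NWAT 2 rose and 2 fell, and in EWAT over NWAT 4 rose and 3 fell. Of all genes, 36.7%, 18.9% and 27.3% passed in these pairs. Ltbp4, a latent TGF-beta binding protein of elastic fibres, had 313 and 270 CPM in SWAT, 2085 and 1906 CPM in EWAT and 1045 and 825 CPM in NWAT. It was lower in SWAT than in EWAT (log2 -2.78 ± 0.15, adjusted p = 8.00e-08) and than in NWAT (-1.68 ± 0.15, adjusted p = 9.33e-06), and, like Thbs1, lowest in SWAT. Ltbp2, another member of that family, was higher in EWAT than in NWAT (2.18 ± 0.39, adjusted p = 0.00201), and the receptor gene Tgfbr2 lower (-0.50 ± 0.12, adjusted p = 0.00815). Smad7, an inhibitor of the pathway, was higher in SWAT than in EWAT (0.44 ± 0.12, adjusted p = 0.0174). The ligand Tgfb1 was higher in SWAT than in NWAT (0.83 ± 0.12, adjusted p = 0.000573). With library totals only, the counts were 0 higher and 5 lower in SWAT over EWAT and 1 higher and 5 lower in SWAT over NWAT.

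**Figure D5:**
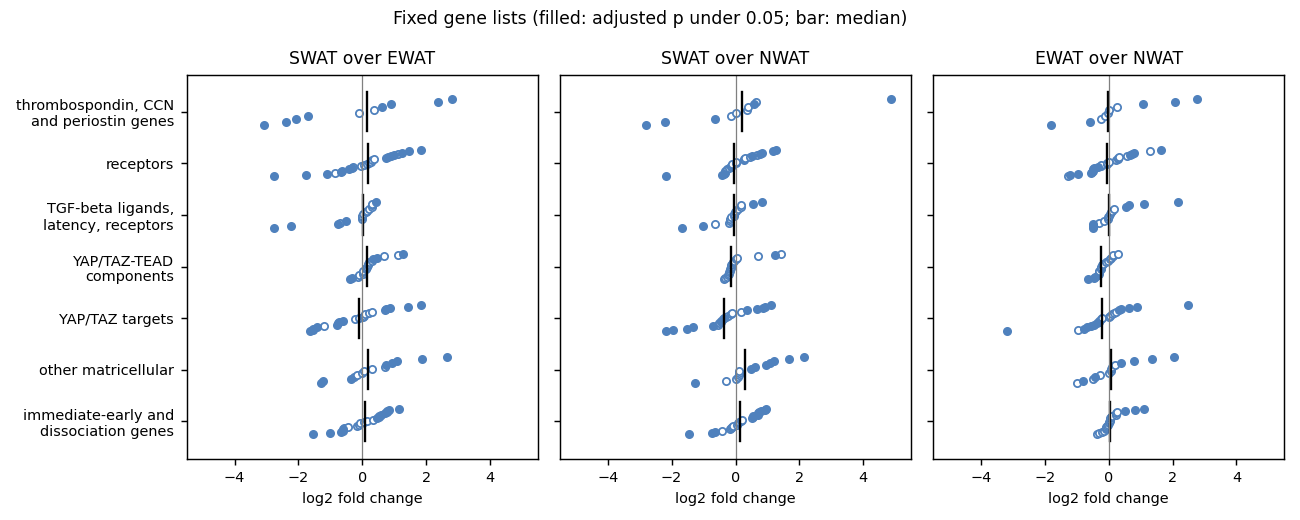
Log2 fold changes (x axis) of the thrombospondin, CCN and periostin genes and of 6 lists of related genes in SWAT over EWAT, SWAT over NWAT and EWAT over NWAT, filled where the adjusted p was under 0.05, with the median as a bar. Each list spreads to both sides of 0, and in EWAT over NWAT the immediate-early list has 3 filled points, all to the right.

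Of 19 components of the YAP/TAZ-TEAD pathway, 3 rose and 2 fell in SWAT over EWAT, 1 rose and 0 fell in SWAT over NWAT, and 0 rose and 3 fell in EWAT over NWAT. All genes passed more often in each pair, at 36.7%, 18.9% and 27.3%. The co-activator genes Yap1 and Wwtr1 passed in no pair. Yap1 gave -0.11 ± 0.10 in SWAT over EWAT (adjusted p = 0.398) and Wwtr1 -0.13 ± 0.10 (adjusted p = 0.323). Amot, which codes for a YAP-binding scaffold, was higher in SWAT than in EWAT (1.26 ± 0.14, adjusted p = 3.10e-05) and in NWAT (1.24 ± 0.14, adjusted p = 7.59e-05). The kinase gene Stk3 was lower in SWAT than in EWAT (-0.39 ± 0.11, adjusted p = 0.0141), and Amotl1, a relative of Amot, lower in EWAT than in NWAT (-0.64 ± 0.15, adjusted p = 0.00790). Scaled by library totals alone, 1 rose and 4 fell in SWAT over EWAT and 1 rose and 9 fell in SWAT over NWAT.

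Other known YAP/TAZ targets, 21 in the list without Cyr61 and Ctgf, changed in both directions. In SWAT over EWAT 5 rose and 8 fell, in SWAT over NWAT 5 rose and 8 fell, and in EWAT over NWAT 5 rose and 6 fell. Among all genes 36.7%, 18.9% and 27.3% passed in these pairs. Igfbp3, an IGF-binding protein gene, had 119 and 125 CPM in SWAT, 27.9 and 40.6 CPM in EWAT and 343 and 275 CPM in NWAT, and passed in all 3 pairs (log2 1.83, -1.34 and -3.17 in SWAT over EWAT, SWAT over NWAT and EWAT over NWAT, adjusted p at most 0.000269). Nt5e, the ectonucleotidase CD73, had 36.5 and 24.7 CPM in SWAT, 89.2 and 90.2 CPM in EWAT and 18.3 and 13.8 CPM in NWAT, and like Ctgf it was highest in EWAT (-1.55 ± 0.18 in SWAT over EWAT, adjusted p = 0.000118, and 2.48 ± 0.19 in EWAT over NWAT, adjusted p = 1.02e-05). Gadd45a, a stress-response gene, was lower in SWAT than in EWAT (-1.64 ± 0.16, adjusted p = 2.58e-05). In SWAT over NWAT, Ccdc80, a matrix protein gene, was the furthest above 0 of those that passed (1.11 ± 0.12, adjusted p = 4.64e-05), and Ankrd1, at no more than 1.91 CPM, the furthest below (-2.16 ± 0.43, adjusted p = 0.00411). On library totals, 4 rose and 10 fell in SWAT over EWAT and 3 rose and 13 fell in SWAT over NWAT.

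Of 18 other matricellular genes, 14 were tested. In SWAT over EWAT 5 rose and 3 fell, in SWAT over NWAT 7 rose and 1 fell, and in EWAT over NWAT 4 rose and 2 fell. Over all genes the shares that passed were 36.7%, 18.9% and 27.3%. Tnc, the tenascin-C gene, had 5.87 and 13.4 CPM in SWAT, 1.40 and 1.66 CPM in EWAT and 3.10 and 1.21 CPM in NWAT. It was higher in SWAT than in EWAT (2.65 ± 0.51, adjusted p = 0.00578) and in NWAT (2.16 ± 0.49, adjusted p = 0.0208), the second call kept under 9 of 16 alternatives. Sparc, a collagen-binding matricellular protein gene, was higher in SWAT than in EWAT (1.09 ± 0.12, adjusted p = 3.26e-05) and in NWAT (1.19 ± 0.12, adjusted p = 3.26e-05). Tgfbi, which codes for the closest relative of periostin, had 178 and 205 CPM in SWAT, 46.9 and 58.1 CPM in EWAT and 83.2 and 99.1 CPM in NWAT. It was higher in SWAT than in EWAT (1.87 ± 0.14, adjusted p = 1.07e-06) and lower in EWAT than in NWAT (-0.80 ± 0.14, adjusted p = 0.00116). Fbln5, an elastic fibre gene, was lower in SWAT than in EWAT (-1.28 ± 0.11, adjusted p = 4.02e-06) and than in NWAT (-1.28 ± 0.11, adjusted p = 9.33e-06). On library totals, 5 rose and 5 fell in SWAT over EWAT. Vtn, the vitronectin gene, was higher in EWAT than in NWAT (2.03 ± 0.11, adjusted p = 2.13e-07).

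Markers of other cell types moved with some of these results. Of 8 tested smooth muscle and pericyte markers, some of which fibroblasts also express, 6 were lower and 2 higher in SWAT than in EWAT, and 6 were higher and 1 lower in EWAT than in NWAT, with 2 higher and 1 lower in SWAT than in NWAT. Of all genes, 36.7% passed in SWAT over EWAT, 27.3% in EWAT over NWAT and 18.9% in SWAT over NWAT. Their summed level was 55.4 and 75.3 CPM in SWAT, 158 and 164 CPM in EWAT and 46.3 and 40.9 CPM in NWAT, highest in EWAT, as were Ctgf and Wisp1. Des made up most of the EWAT sum, at 90.9 and 95.8 CPM. Notch3 made up most of the SWAT sum, at 34.7 and 50.2 CPM. The 2 markers higher in SWAT than in EWAT were Notch3 (1.68 ± 0.17, adjusted p = 2.98e-05) and Cspg4 (0.82 ± 0.25, adjusted p = 0.0219). Myh11 had 3.67 and 5.22 CPM in SWAT, 27.1 and 23.8 CPM in EWAT and 1.91 and 1.02 CPM in NWAT, and Cnn1, the marker not tested, was at 0 in 1 EWAT and 1 NWAT library. Of 6 macrophage and leukocyte markers, 3 were lower in SWAT than in EWAT and 3 higher in EWAT than in NWAT, at a summed level of 11.2 and 20.4 CPM in SWAT, 29.6 and 26.4 CPM in EWAT and 17.1 and 16.5 CPM in NWAT. Among those called, Adgre1 had 24 and 22 counts in EWAT and at most 7 elsewhere, and Ptprc 18 and 19 and at most 8. They passed the filter on low counts through EWAT, so a high EWAT level was a condition of testing them. The part of these cells in the Ctgf and Wisp1 results was not tested.

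Most mesothelial markers moved with Thbs1 and Nov. Of 5 tested, 4 were lower and 1 higher in SWAT than in EWAT, and 4 were lower and 0 higher in SWAT than in NWAT. Among all genes 36.7% and 18.9% passed in these pairs. Their summed level was 3.51 and 4.22 CPM in SWAT, 159 and 168 CPM in EWAT and 118 and 146 CPM in NWAT. In EWAT and NWAT nearly all of it was Wt1, which visceral fat progenitors also express and which was at 0 in both SWAT libraries. Msln and Upk3b reached at most 3.64 CPM in any library. Krt19 ran otherwise, with 3.18 and 3.11 CPM in SWAT, 0.607 and 0.809 CPM in EWAT and 6.39 and 6.21 CPM in NWAT. Krt19 was higher in SWAT than in EWAT (2.14 ± 0.27, adjusted p = 9.41e-05) and lower in EWAT than in NWAT (-3.14 ± 0.26, adjusted p = 4.38e-06). The part of mesothelial cells in the Thbs1 and Nov results was not tested.

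Platelets are known to carry thrombospondin 1, and 5 platelet and megakaryocyte markers were read beside it. Their summed level was 22.7 and 26.6 CPM in SWAT, 10.7 and 12.2 CPM in EWAT and 13.2 and 17.2 CPM in NWAT, highest in SWAT, where Thbs1 was lowest. Most of it was Itga2b and Gp1bb, the 2 markers tested. Itga2b had 14.1 and 19.1 CPM in SWAT, 4.39 and 3.77 CPM in EWAT and 7.68 and 9.995 CPM in NWAT, and was higher in SWAT than in EWAT (log2 2.03 ± 0.20, adjusted p = 1.09e-05) and in NWAT (0.91 ± 0.18, adjusted p = 0.00422) and lower in EWAT than in NWAT (-1.11 ± 0.20, adjusted p = 0.00174). Gp1bb had 5.15 to 7.95 CPM and passed in no pair. Pf4 reached at most 0.514 CPM, Gp9 0.679 CPM and Ppbp, at 0 in 4 libraries, 0.340 CPM. Their part in the Thbs1 result was not tested. Of 5 endothelial markers, 1 was higher and 0 lower in SWAT than in EWAT (36.7% of all genes passed). In SWAT over NWAT 2 were higher and 1 lower (18.9%), and in EWAT over NWAT 1 and 1 (27.3%). Of 3 tested Schwann cell markers, 2 were higher in SWAT than in EWAT and 1 higher than in NWAT, with 0 lower. Of 3 tested adipocyte markers, 1 was lower in SWAT in each of these pairs, with 0 higher.

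For the 3 members with the widest range between depots, the genes most alike over the 6 libraries were listed by Pearson's r of log2 CPM, among 2469 tested genes with a range of at least 1 on the log2 scale. Wisp2 (range 4.84) was most like Plod1 (r = 0.999), which codes for a collagen lysyl hydroxylase, Tnfrsf26 (0.997) and Slco2b1 (0.997). Thbs1 (range 3.07) was most like Aox3 (0.997), Tmtc2 (0.997) and Oxnad1 (0.995). Wisp1 (range 2.57) was most like B3gnt8 (0.997), Hsd11b1 (0.995), which codes for the enzyme that regenerates active glucocorticoid, and Fstl3 (0.994). With 6 libraries in 3 depots, such values describe a shared order of depots and carry no test.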

How the data were processed

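The authors deposited, per the file headers, estimated counts per gene symbol, of which 31.7% to 33.1% per library are not whole, and FPKM values normalized by gene length and library size. The build GRCm38.p6 and the tools Cell Ranger and Seurat appear without role or version, per the submitters' processing notes. The aligner, the counter and the strand setting were not given in the sources used here. The columns that match no label, 2 per table, were left out. The 10 members and the lists were chosen with earlier results of these data known, and all members are named in every comparison. From each list the genes named were those with the largest change in each direction among those that passed, plus genes needed for a role, picked after their values were seen.

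In R 4.3.3, counts were rounded, filtered by filterByExpr (minimum count 10, total 15; 13694 genes), TMM-scaled and fitted with edgeR 4.0.16's robust quasi-likelihood model, 1 coefficient per depot over 6 libraries (3 residual degrees of freedom, biological coefficient of variation 0.0979). Benjamini-Hochberg adjusted p-values were called at 0.05. SE is the absolute log2 fold change over the square root of F. Alternatives used DESeq2 1.42.0, limma 3.58.1 on log2(FPKM + 1) and log2(FPKM + 0.1), other scalings and filters, a replicate block and each library left out. Scripts were tested on simulated data. Ratios within libraries use FPKM. Log2 CPM correlated over genes at 0.988 to 0.991 for libraries of 1 depot and 0.924 to 0.963 for libraries of different depots. Gene positions are from GENCODE M21.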

Additional observations from a re-analysis of the deposited data

How the results depend on the processing

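Of 470 values of the 30 single-member comparisons under the alternatives, 432 kept direction and side of the threshold, 18 lost a call, 7 gained one and 13 changed sign, 0 of them among called differences. The cause was not tested. Thbs3 was 0.018 in SWAT over EWAT without SWAT replicate 2 (-0.22 to 0.018 with each library left out), and 0.014, 0.019 and 0.020 in EWAT over NWAT with library totals only, log2(FPKM + 1) and log2(FPKM + 0.1). Thbs4 was -0.11 in SWAT over NWAT without NWAT replicate 1 (-0.11 to 1.15), and -0.18 and -0.49 in EWAT over NWAT without EWAT replicate 1 and NWAT replicate 1 (-0.49 to 0.78). Postn in SWAT over NWAT was -0.17 with library totals only, -0.16 on each FPKM scale, and -0.022 and -0.031 without SWAT replicate 2 and NWAT replicate 2 (-0.031 to 0.080). Nov in EWAT over NWAT was 0.19 without NWAT replicate 1 (-0.39 to 0.19). Cyr61 in SWAT over EWAT gave an adjusted p of 0.0676 on log2(FPKM + 0.1), and Postn 0.0747.

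With each library left out in turn, members called ranged from 7 to 8 in SWAT over EWAT, 3 to 5 in SWAT over NWAT (3 without NWAT replicate 2) and 4 to 6 in EWAT over NWAT, and all genes called from 3085 to 5672, 1467 to 3323 and 2129 to 4884. All genes called in SWAT over NWAT were 3946 with library totals only. Same-numbered replicates deviated together with r = 0.000549, 0.0375 and 0.110 over genes, so the numbers were not taken to pair samples. The replicate block gave 8, 6 and 5 members called, where Cyr61 in SWAT over NWAT was added (0.61, adjusted p = 0.0421). Members of few counts, Thbs4 and Wisp1, limit what 2 libraries per depot can show, and pairs with mesenteric fat were not run.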
